A study of Mus musculus with 3 samples.

Results

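The pathway that loads peptides onto MHC class I molecules was followed through 10 of the 27179 genes in a count table of adipose stem and progenitor cells. They were taken by symbol and NCBI gene ID: the light chain gene B2m, the heavy chain genes H2-K1 and H2-D1, the peptide transporter genes Tap1 and Tap2, the loading chaperone gene Tapbp, the immunoproteasome genes Psmb8 and Psmb9, the peptide-trimming gene Erap1 and the transactivator gene Nlrc5. The study holds 1 group of 3 libraries. The cells were sorted from epididymal adipose tissue of male mice, naive and wild-type, of the strain labelled C57B6 and aged 12 weeks, with no treatment and no second genotype, cell type or tissue. The sort kept live cells that carried CD140a, Sca1 and podoplanin and lacked CD45, CD31 and Ter119, so the cells are a gated part of the stroma after collagenase digestion, and each library pools many of them. The labels name 3 mice without tying a library to each, and the spread between libraries may be technical. The p-values rest on these libraries alone and turn mainly on whether a difference has the same sign in each.

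Class I molecules sit on nearly all nucleated cells and show fragments of the cell's own proteins to CD8 T cells. Proteasomes cut proteins into peptides, and in cells exposed to interferon the immunoproteasome subunits replace their constitutive counterparts. The TAP transporter carries the peptides into the endoplasmic reticulum, where aminopeptidases trim them and tapasin, encoded by Tapbp, holds the heavy chain and its light chain beta-2 microglobulin beside the transporter until a peptide fits. Nlrc5 binds no DNA itself but acts at class I promoters through factors already bound there.

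The libraries held 25060096 to 32813373 counts, so that 0 counts, taken as fewer than 3, allowed a level of up to 0.0945 to 0.119 CPM (a gene's count scaled to the library's total, adjusted for composition). These limits cover counting error only. Genes of the sorted population were detected in 9 of 9 cases, where detected means no library below 1 CPM, with Pdgfra, which encodes CD140a, at 1484 ± 14.5 CPM (SD, n = 3, as throughout). Of 17 leukocyte markers 1 was detected, Ptprc, which encodes CD45, at 5.42, 15.8 and 7.68 CPM in libraries 1, 2 and 3, and the list summed to 6.71, 19.9 and 7.96 CPM. C1qb, Lck, S100a8 and S100a9 had 0 counts. None of the 8 endothelial, 5 erythroid, 5 mesothelial, 7 mature adipocyte and 6 mural markers was detected, and each of these lists summed to 9.11 CPM or less in every library. Their defining genes Pecam1, Cdh5 and Msln had 4 counts or fewer in all, and Hba-a1, Adipoq and Rgs5 had 0. Other genes of these lists had more, unevenly over libraries 1, 2 and 3. Among erythroid markers Hbb-bs had 66, 0 and 0 counts and Hba-a2 31, 2 and 0. Among adipocyte markers Retn had 2, 164 and 0 counts, Car3 67, 1 and 0, Lep 5, 3 and 58 and Plin1 28, 0 and 1. The mural markers Cspg4 and Kcnj8 had 54, 1 and 145 and 69, 111 and 0. The part of such cells in the levels below was not tested. Immediate-early and stress genes, which respond to handling, were detected in 11 of 11 cases and led by Fos at 6574 ± 557 CPM, so the levels below are those after digestion and sorting. The part of handling in them was not tested.

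Of the 10 class I genes, 9 were detected, against 35.0% of all genes in the table and 43.7% of protein-coding genes. Nlrc5 was the exception. The median of the 10 mean levels was 59.4 CPM, against 0.108 CPM over all genes and 1.90 CPM over protein-coding genes. In bulk cells, fewer cells with a transcript and less of it per cell cannot be told apart. Comparisons between genes below use CPM per kilobase of annotated exon, since a longer transcript gives more reads.

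**Figure D1:**
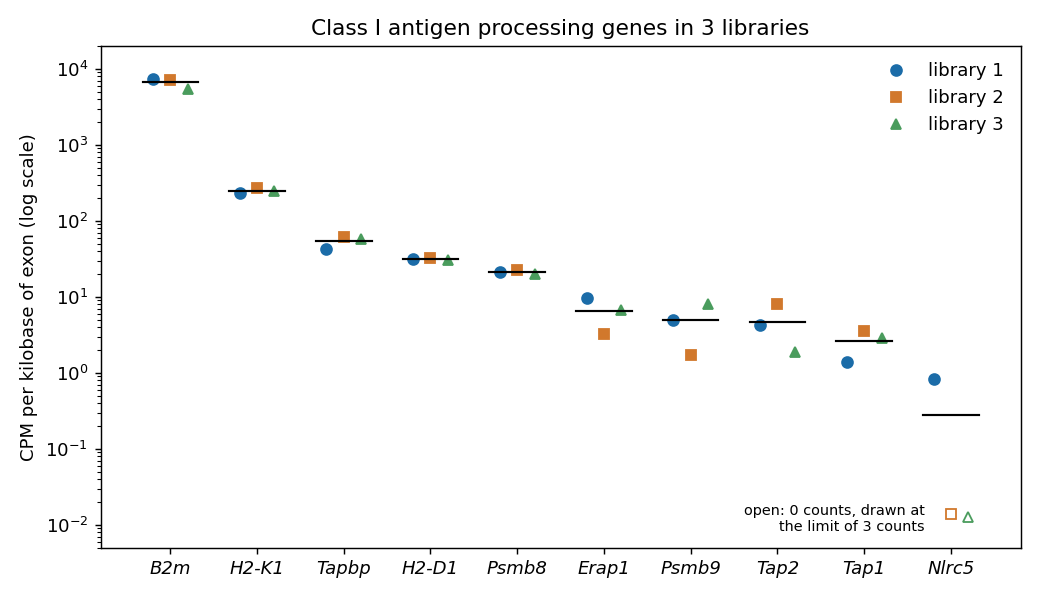
Levels of the 10 class I genes in CPM per kilobase of exon on a log axis, with 1 point per library and a bar at the mean of 3 libraries. The means run from 6644 CPM per kilobase for B2m to 0.274 for Nlrc5, whose libraries 2 and 3 had 0 counts and are drawn open at the limit of 3 counts.

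The light chain gene B2m (gene 12010, chromosome 2, 122147687 to 122153082, GRCm38) was the most abundant of the 10 and ranked 8 among all genes by mean CPM. It stood at 6330, 6205 and 4608 CPM in libraries 1, 2 and 3. Library 3 was the lowest. Its mean per kilobase was 6644 ± 1117. No stretch of 50 bases of its transcript occurs in the annotated transcripts of another gene.

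The heavy chain genes both lie in the mouse MHC, H2-K1 at 33996012 to 34000619 (gene 14972) and H2-D1 at 35263094 to 35267497 (gene 14964) on chromosome 17 (GRCm38). Both encode the classical class I chain that binds peptide, and mice with the C57BL/6 haplotype carry these classical genes and no H2-L. H2-K1 had 685, 792 and 726 CPM in libraries 1, 2 and 3. H2-D1 had 81.0, 83.7 and 79.3 CPM in the same order. In every library H2-K1 was higher, and the 2 sets of values did not overlap. Per kilobase H2-K1 averaged 250 ± 18.3 and H2-D1 31.5 ± 0.860, a difference of 2.97 ± 0.08 on the log2 scale with a pseudocount of 0.5, with the same sign in each library. A two-sided exact permutation test that flips signs over libraries gave p = 0.25, the least that 3 libraries allow (Benjamini-Hochberg adjusted p = 0.361 over 13 pairs). No pair could therefore pass 0.05, and each difference is read against its SD between libraries.

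The level of H2-D1 is uncertain because it shares sequence with other class I genes and the treatment of reads that match several genes is not given in the sources used here. Of the distinct stretches of 50 bases in annotated transcripts, 12.8% of those of H2-D1 and 9.63% of those of H2-K1 also occur in another gene. The 2 genes share 141 such stretches with each other, H2-D1 shares 152 with H2-Q1, and H2-K1 shares 179 with H2-Q10. At 36 bases the shares were 21.8% for H2-D1 and 17.6% for H2-K1, and at 100 bases 3.59% and 0.957% in the same order. Counted over the stretches of 50 bases that no other gene holds, in place of exon length, the difference between H2-K1 and H2-D1 was 2.69. These counts cover exact matches only; near matches were not searched.

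**Figure D2:**
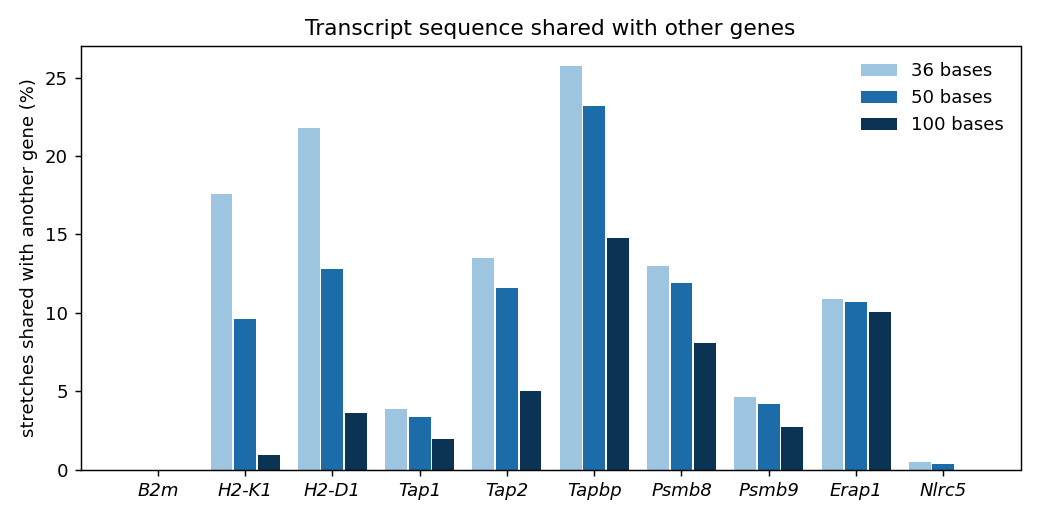
Share of the distinct stretches of 36, 50 or 100 bases in each gene's annotated transcripts that also occur in a transcript of another gene, in percent. Tapbp has the highest share at each length, 23.2% at 50 bases, and B2m has none.

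B2m exceeded H2-K1 per kilobase by 4.72 ± 0.27 and H2-D1 by 7.68 ± 0.23 on the log2 scale, in each library (exact permutation p = 0.25 for each, adjusted p = 0.361). The size depends on the length used: the difference from H2-K1 was 3.86 per kilobase of the longest protein-coding transcript, 4.07 with the longest annotated transcript and 2.95 in CPM without length, and that from H2-D1 was 7.39, 7.39 and 6.11 in the same order. The light chain also pairs with class I-like chains. Summed over the 19 partner chains with an annotated length, which include the neonatal Fc receptor gene Fcgrt, the iron regulator gene Hfe and the CD1 and MR1 genes, heavy chains gave 430.4, 466 and 459 CPM per kilobase in libraries 1, 2 and 3. B2m was 17.1, 15.5 and 11.7 times that sum in the same order, or 14.8 ± 2.78 on average, a ratio that rests on the same exon lengths. H2-K1 alone made up 54.2%, 57.8% and 53.9% of the sum. Ratios of transcript do not give ratios of protein.

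The promoters of these genes are shown because classical class I genes and B2m are known to share control elements. Each runs from 250 bases before to 50 bases after a start of transcription listed in RefSeq (GRCm38.p6). All are written in the direction of the gene, with motif matches in capitals. For H2-K1 the first of 2 listed starts was used, and the window lies wholly within the gene's span given above.
B2m, chr2:122147437-122147736, plus strand: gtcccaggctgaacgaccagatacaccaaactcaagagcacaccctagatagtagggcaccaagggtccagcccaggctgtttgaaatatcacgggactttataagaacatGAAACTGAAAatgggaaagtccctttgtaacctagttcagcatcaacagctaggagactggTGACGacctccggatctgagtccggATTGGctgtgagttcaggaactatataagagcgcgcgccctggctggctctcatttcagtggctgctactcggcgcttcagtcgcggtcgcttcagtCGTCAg
H2-K1, chr17:34000298-34000597, minus strand: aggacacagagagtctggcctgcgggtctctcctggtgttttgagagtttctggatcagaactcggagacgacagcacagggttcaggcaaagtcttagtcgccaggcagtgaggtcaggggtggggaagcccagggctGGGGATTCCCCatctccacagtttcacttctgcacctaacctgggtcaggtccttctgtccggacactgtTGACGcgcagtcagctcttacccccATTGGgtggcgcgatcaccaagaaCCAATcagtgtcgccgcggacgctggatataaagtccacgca
H2-D1, chr17:35262844-35263143, plus strand: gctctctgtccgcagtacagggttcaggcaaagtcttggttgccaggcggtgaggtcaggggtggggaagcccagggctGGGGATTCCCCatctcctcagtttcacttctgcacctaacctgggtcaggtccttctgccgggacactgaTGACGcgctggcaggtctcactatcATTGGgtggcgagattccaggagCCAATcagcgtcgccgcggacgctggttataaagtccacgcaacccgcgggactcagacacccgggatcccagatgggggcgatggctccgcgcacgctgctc
The motifs searched on both strands were the interferon-stimulated response element (GAAA, any 2 bases, GAAA), the kappa-B site of class I genes (GGGGA, any base, TCCCC), the CCAAT box (CCAAT) and the core of the cAMP response element (TGACG). The kappa-B letters, GGGGATTCCCC, stand in H2-K1 and in H2-D1 and in 0.0487% of the 32851 promoters in the table (16 promoters), the response element in B2m and Erap1 and in 3.44%. The CCAAT letters were found in 6 of the 8 members with a promoter in the table and in 37.4% of all promoters, and TGACG in 5 of 8 and in 20.8%. A local alignment of the H2-K1 and H2-D1 promoters matched 206 of 228 columns (90.4%). The 2 promoters carry the same motif letters in the same order, at different distances from the start used. The kappa-B letters end 101 bases before it in H2-K1 and 161 bases before it in H2-D1. Whether the promoters bear on the levels of the 2 genes was not tested. Matches describe these windows and do not show that a factor binds. Variants of these letters were not searched, so a window without a match may still hold a form of that element.

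Of the other class I and class I-like chains, 7 of 18 were detected, with a median of 1.00 CPM. Fcgrt, which salvages antibodies and albumin, led at 206 ± 31.1 CPM. H2-T23, a non-classical chain read by receptors on natural killer cells, followed at 66.4 ± 6.85, then Hfe at 43.9 ± 22.7 and H2-M3, which presents peptides with a formylated end, at 37.9 ± 13.8 CPM. H2-T22, Mr1 and Cd1d1 were also detected, at 13.3 ± 2.71, 12.3 ± 4.97 and 6.69 ± 1.44 CPM, though 53.5% of the stretches of 50 bases of H2-T22 occur in another gene. H2-M5 had 0 counts. H2-Q1, H2-Q2, H2-Q6 and H2-Q10 had 5 counts or fewer over the 3 libraries, and 14.96% to 34.97% of their stretches of 50 bases occur elsewhere. H2-Q7 had 1, 1 and 59 counts and H2-T24 had 2, 205 and 12, each high in 1 library.

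The remaining MHC members sit close together. Psmb9, Tap1, Psmb8 and Tap2 follow each other on chromosome 17 within 34292 bases, from 34182030 to 34216321, and Tapbp lies at 33919478 to 33929290, on the far side of H2-K1. The transporter genes were low. Tap1 (gene 21354, plus strand, 34187556 to 34197225), which encodes a subunit of the peptide pump, had 7.497, 19.6 and 15.6 CPM in libraries 1, 2 and 3. Tap2 (gene 21355), which encodes the partner subunit, had 16.0, 30.3 and 7.18 CPM. Of the stretches of 50 bases of Tap2, 11.6% occur in another gene, and 9.22% lie in Gm15821. Tap1 was lowest in library 1 and Tap2 in library 3, and their values overlapped. Per kilobase Tap1 averaged 2.60 ± 1.13 and Tap2 4.72 ± 3.09, a difference of -0.64 ± 0.98 on the log2 scale with Tap2 higher in 2 of 3 libraries, which is within the spread (exact permutation p = 0.5, adjusted p = 0.591). Without library 2 the mean of Tap2 was 11.6 CPM, against 17.8 over the 3 libraries.

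Tapbp (gene 21356) was well above the transporter in every library. It had 156, 219 and 211 CPM in libraries 1, 2 and 3, with library 1 the lowest. Per kilobase Tapbp averaged 53.8 ± 9.46 and Tap1 2.60 ± 1.13, which differ by 4.19 ± 0.32 on the log2 scale, in the same direction in each library. Its relative Tapbpl, a peptide editor outside the loading complex, was at 1.73 ± 1.32 per kilobase, and Tapbp exceeded it by 4.74 ± 0.65 (exact permutation p = 0.25 for each, adjusted p = 0.361). Of the stretches of 50 bases of Tapbp, 23.2% occur elsewhere, and 20.3% lie in the antisense gene Gm19412, whose reads cannot be told apart without strand.

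Psmb9 and Tap1 point away from each other, and their ends in the RefSeq table lie 226 bases apart. In the GENCODE transcripts they overlap, sharing 163 stretches of 50 bases (4.19% of those of Psmb9 and 2.88% of those of Tap1), whose reads cannot be told apart without strand. The Tap1 promoter is shown because it also covers the start of Psmb9, written in the direction of Tap1.
Tap1, chr17:34187306-34187605, plus strand: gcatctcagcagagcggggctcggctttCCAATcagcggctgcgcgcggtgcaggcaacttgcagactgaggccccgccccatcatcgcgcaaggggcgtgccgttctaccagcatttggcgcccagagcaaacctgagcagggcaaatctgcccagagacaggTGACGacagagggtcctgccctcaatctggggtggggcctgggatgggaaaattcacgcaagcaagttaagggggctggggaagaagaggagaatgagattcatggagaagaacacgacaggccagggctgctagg
The CCAAT letters and the core of the cAMP response element fall between the 2 starts, and neither the kappa-B letters nor the response element letters were found in this window. The 2 genes did not follow the same order over libraries. Psmb9 (gene 16912, minus strand, 34182030 to 34187330) had 17.96, 6.30 and 29.7 CPM in libraries 1, 2 and 3, lowest in library 2, where Tap1 was highest at 19.6 CPM. With 3 libraries no correlation was computed.

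The immunoproteasome genes differed in how steady they were. Psmb8 (gene 16913, 34198195 to 34201454), which encodes the subunit that replaces Psmb5, had 71.5, 75.3 and 68.1 CPM in libraries 1, 2 and 3, a CV of 4.99%. Of the stretches of 50 bases of Psmb8, 11.9% occur in another gene, mostly Gm20496. Psmb9, which encodes the subunit that replaces Psmb6, had a CV of 65.0%, and its highest library was 4.71 times its lowest. Part of this contrast goes with level. The median CV of genes within 1.5 times the level of Psmb9 was 45.2%, against 26.3% for Psmb8, and a CV of 3 values is imprecise. Psmb8 was higher than Psmb9 in every library, by 2.21 ± 1.06 on the log2 scale per kilobase (exact permutation p = 0.25, adjusted p = 0.361). The third immunoproteasome subunit gene, Psmb10, had 74.4, 68.3 and 66.7 CPM.

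Set against its constitutive counterpart, Psmb9 was far lower and Psmb8 and Psmb10 were not clearly placed. Psmb9 averaged 4.91 ± 3.19 CPM per kilobase and Psmb6 289 ± 44.8, a difference of -5.93 ± 0.79 on the log2 scale, in the same direction in each library (exact permutation p = 0.25, adjusted p = 0.361). Psmb8 averaged 21.2 ± 1.06 and Psmb5 28.1 ± 10.6 per kilobase, a difference of -0.33 ± 0.59 with Psmb8 higher in 1 of 3 libraries (exact permutation p = 0.5, adjusted p = 0.591). That difference turned to 0.70 per kilobase of the longest protein-coding transcript and to 1.55 in CPM without length. It was -1.32 ± 0.60, with the same sign in each library, over the stretches of 50 bases that no other gene holds (exact permutation p = 0.25). Of the stretches of 50 bases of Psmb5, 54.1% occur in another gene, mostly the processed pseudogene Gm3375. Psmb10 averaged 41.0 ± 2.39 and Psmb7 28.0 ± 7.41 per kilobase, a difference of 0.57 ± 0.40 (exact permutation p = 0.25, adjusted p = 0.361) that turned to -0.59 per kilobase of the longest protein-coding transcript. So the direction of these last 2 differences depends on which transcript length is used.

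**Figure D3:**
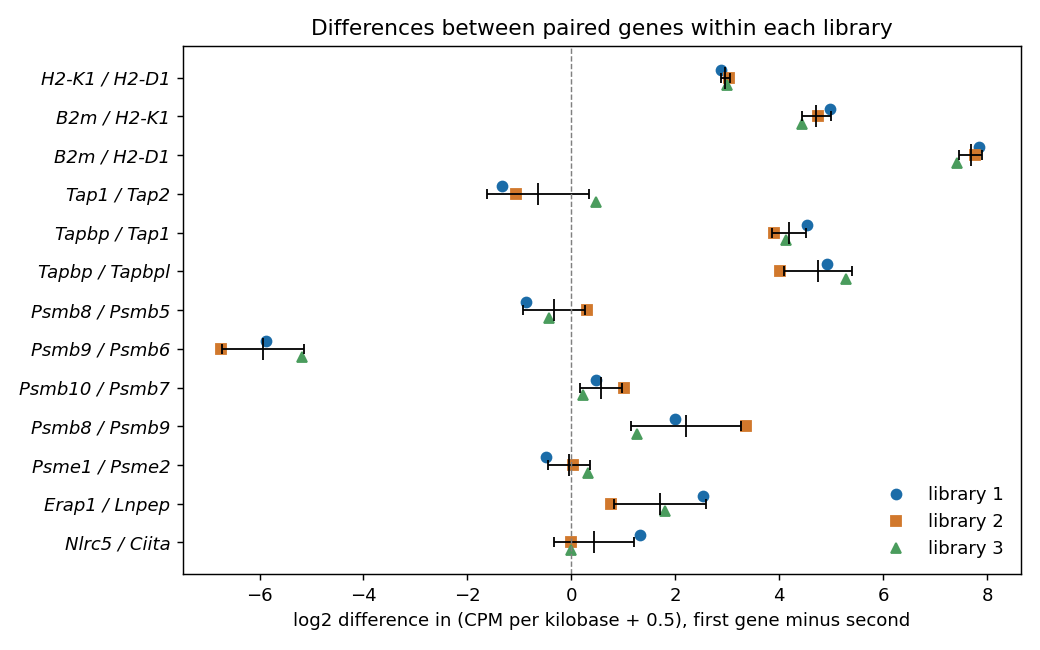
Log2 difference in CPM per kilobase of exon (pseudocount 0.5) between paired genes within each library, first gene minus second, with 1 point per library and an upright mark and bar for the mean and SD of 3. B2m, H2-K1 and Tapbp lie far to the right of their partners, Psmb9 lies at -5.93 against Psmb6, and the bars of the Tap1, Psmb8 to Psmb5, Psme1 and Nlrc5 pairs cross 0.

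All 14 other core proteasome genes were detected, with a median of 173 CPM, led by Psmb1 at 563 ± 15.1, Psmb2 at 551 ± 161, Psmb6 at 540 ± 83.9 and Psma2 at 534 ± 94.9 CPM. Of 7 further proteasome genes 6 were detected. The assembly factor gene Pomp led at 275 ± 56.0 CPM, followed by the activator genes Psme1 at 119 ± 25.6, Psme2 at 97.05 ± 8.04 and Psme4 at 76.5 ± 25.8. Psmb11, the thymus-specific catalytic subunit, had 7 counts in all. Psme1 and Psme2, which form 1 activator ring, averaged 54.0 ± 11.6 and 55.0 ± 4.56 CPM per kilobase and differed by -0.05 ± 0.40 on the log2 scale (exact permutation p = 1, adjusted p = 1). The difference was -0.76 ± 0.40 with the longest annotated transcript and -0.63 ± 0.40 over stretches of 50 bases that no other gene holds, each with the same sign in every library (exact permutation p = 0.25 for each), and 0.28 ± 0.41 in CPM without length. Of the stretches of 50 bases of Psme2, 28.3% occur in its copy Psme2b.

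Among partners of the loading step, 7 of 7 were detected, with a median of 49.7 CPM. Hspa5, the chief chaperone of the endoplasmic reticulum, led at 2424 ± 560 CPM, followed by calnexin (Canx) at 1042 ± 129, the thiol oxidoreductase gene Pdia3 at 188.5 ± 25.6 and Uggt1, which checks folding, at 49.7 ± 16.3. Calreticulin (Calr), which sits in the loading complex, had 51.6, 47.6 and 20.5 CPM in libraries 1, 2 and 3.

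Erap1 (gene 80898, chromosome 13, 74639573 to 74693205, GRCm38), which trims peptides in the endoplasmic reticulum to the length class I binds, had 69.3, 23.4 and 48.5 CPM in libraries 1, 2 and 3. Library 1 was 2.96 times library 2. It overlaps Cast on the other strand, and 10.7% of its stretches of 50 bases lie in Cast, so part of its reads cannot be assigned without strand. Per kilobase Erap1 averaged 6.47 ± 3.16 and Lnpep, which trims peptides in endosomes, 1.49 ± 0.229, a difference of 1.70 ± 0.89 on the log2 scale, in the same direction in each library (exact permutation p = 0.25, adjusted p = 0.361). In CPM without length it was 1.02 ± 1.00 (exact permutation p = 0.5), and in library 2 Erap1 was at 23.4 CPM and Lnpep at 23.8. Of 7 other peptidases measured, 6 were detected, led by Ide at 107 ± 21.0, Tpp2 at 76.96 ± 22.04, Npepps at 57.2 ± 17.8 and Lap3 at 31.9 ± 8.45 CPM.

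The transactivator gene Nlrc5 (gene 434341, chromosome 8, 94434335 to 94527272, GRCm38) was found in 1 library. It had 222, 0 and 0 counts in libraries 1, 2 and 3, or 6.99 CPM in library 1. That is at least 58.8-fold higher than the limit of 3 counts allows in library 2 and at least 65.3-fold higher than in library 3, for counting error only. The summed leukocyte markers, 6.71, 19.9 and 7.96 CPM in libraries 1, 2 and 3, were mostly Ptprc. The macrophage gene Lyz2 had 25, 0 and 0 counts, C1qc 3, 0 and 0, and the class II genes H2-Ab1 and H2-Aa 78, 0 and 1 and 188, 77 and 0. Other genes of these lists were highest in library 2. Cd68 had 7, 43 and 0 counts, Csf1r 2, 55 and 4, Cd74 24, 609 and 6, and H2-Eb1 139, 433 and 259. The part of leukocytes in the Nlrc5 counts was not tested. Of the 1216 genes whose mean level was within 1.5 times that of Nlrc5, 7.40% also had 0 counts in 2 of 3 libraries. Over the same libraries the highest value of B2m was 1.37 times its lowest and that of H2-K1 1.16 times. B2m and Erap1 were highest in library 1, as Nlrc5 was. H2-K1, H2-D1, Tap1, Tap2, Tapbp and Psmb8 were highest in library 2 and Psmb9 in library 3. Whether the level of Nlrc5 bears on these genes was not tested. Ciita, the related transactivator of class II genes, had 9, 0 and 1 counts, and the difference between Nlrc5 and Ciita rests on library 1: it was 0.44 ± 0.77 on the log2 scale and -0.01 without that library (exact permutation p = 1, adjusted p = 1).

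Most factors known to bind class I promoters were detected, 11 of 12, with a median of 41.6 CPM. Creb1 led at 100.2 ± 24.5 CPM, then Nfkb1 at 76.8 ± 3.68, Atf1 at 71.5 ± 26.95 and the interferon-induced Irf1 at 54.95 ± 14.2. Of the subunits of RFX, the complex through which Nlrc5 acts, Rfxap had 14.8, 5.94 and 31.4 CPM, Rfx5 had 2.17, 3.61 and 5.11, and Rfxank had 2.87, 6.02 and 0.857 CPM in libraries 1, 2 and 3. All 10 genes of interferon signalling were detected, led by Jak1 at 555 ± 72.5, the interferon-gamma receptor gene Ifngr1 at 298 ± 63.0, Jak2 at 74.3 ± 20.4 and Ifnar2 at 67.9 ± 14.7 CPM. Of 5 interferon genes 0 were detected. Ifnb1 and Ifna4 had 0 counts in every library, and Ifng, Ifnk and Ifne had 1 count each.

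Of 12 genes of the class II pathway 1 was detected, with a median of 0.0720 CPM and 8 below 1 CPM in every library. H2-Eb1, a class II beta chain, had 4.38, 17.2 and 9.25 CPM in libraries 1, 2 and 3. The invariant chain gene Cd74 had 0.756, 24.1 and 0.214 CPM, high in library 2, and H2-Aa had 5.92, 3.05 and 0. The summed class II level was 13.99, 44.6 and 9.89 CPM, and the summed leukocyte markers, at 6.71, 19.9 and 7.96 CPM, were also highest in library 2. The part of leukocytes in these values was not tested. Of the 10 class I members, 6 were highest in library 2, namely H2-K1, H2-D1, Tap1, Tap2, Tapbp and Psmb8. For H2-D1 and Psmb8 the highest library was only 1.06 and 1.10 times the lowest. B2m, Erap1 and Nlrc5 were highest in library 1 and Psmb9 in library 3. The share of all genes highest in library 2 was not computed, so the count is no result about the members.

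**Figure D4:**
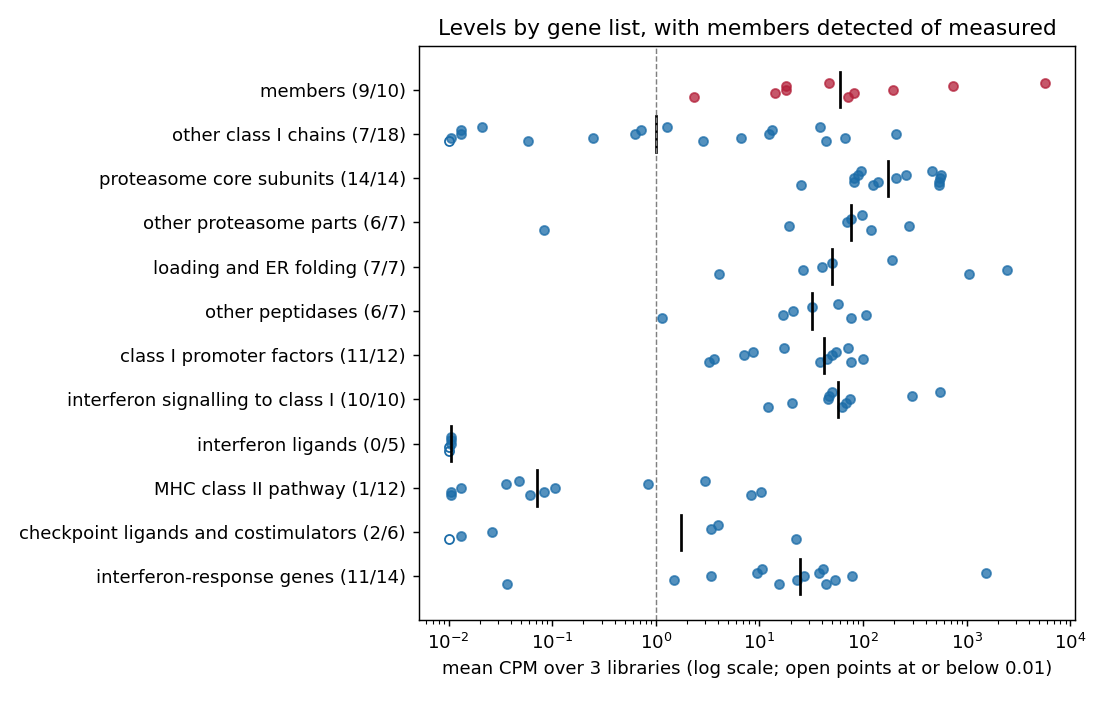
Mean CPM over 3 libraries on a log axis, with 1 point per gene (open at or below 0.01 CPM), an upright bar at each list's median, a dashed line at 1 CPM and the number detected of those measured beside each name. Proteasome (apart from Psmb11), loading and interferon-signalling genes lie to the right of the line, while 11 of 12 class II genes and all 5 interferon genes were not detected.

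Ordered by mean CPM per kilobase of exon, the 10 genes ran B2m, H2-K1, Tapbp, H2-D1, Psmb8, Erap1, Psmb9, Tap2, Tap1 and Nlrc5. Of the 9 steps between neighbours, 6 had the same order in 3 of 3 libraries. The 3 that did not were Erap1 over Psmb9 at 0.46 ± 0.63 on the log2 scale, Psmb9 over Tap2 at 0.03 ± 1.90 and Tap2 over Tap1 at 0.64 ± 0.98, each within its SD. Per kilobase of the longest protein-coding transcript, Psmb8 at 44.0 ± 2.20 stood above H2-D1 at 38.7 ± 1.05, and Psmb9 at 13.3 ± 8.65 above Erap1 at 8.34 ± 4.07. The order is read from the same values and has no test.

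The 10 genes split in how far the libraries lay apart. In 5 of them the highest library was 2-fold or more over the lowest, namely Tap1, Tap2, Psmb9, Erap1 and Nlrc5, against 61.1% of the 13289 genes with 10 counts or more in a library and 42.0% of genes at 10 CPM or more. Nlrc5 entered that set through library 1 alone. The count is near these shares and is no result about the members. B2m, H2-K1, H2-D1, Tapbp and Psmb8 lay within 1.06-fold to 1.41-fold. For its level B2m was not among the steadier genes, with a CV of 16.8% against a median of 12.2%, above 78.6% of 14 genes within 1.5 times its level, while H2-K1 had a CV of 7.32% against 13.1%. H2-D1 had a CV of 2.73%, against a median of 25.3% among the 1733 genes within 1.5 times its level, of which 0.808% had a smaller CV. The CV of Psmb8 was 4.99% against 26.3% among 1874 such genes, with 2.13% of them smaller. A CV of 3 values is imprecise, and the biological coefficient of variation from edgeR was less extreme. It was 0.283 for H2-D1 against a trend of 0.331 at its level, and 0.298 for Psmb8 against 0.348. Tap1, at a CV of 43.4% against a median of 48.7%, and Tapbp, at 17.6% against 18.4%, were near the middle for their level. Erap1, Tap2 and Psmb9 had CVs of 48.8%, 65.4% and 65.0%, above 81.0%, 77.5% and 77.1% of genes at their level.

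**Figure D5:**
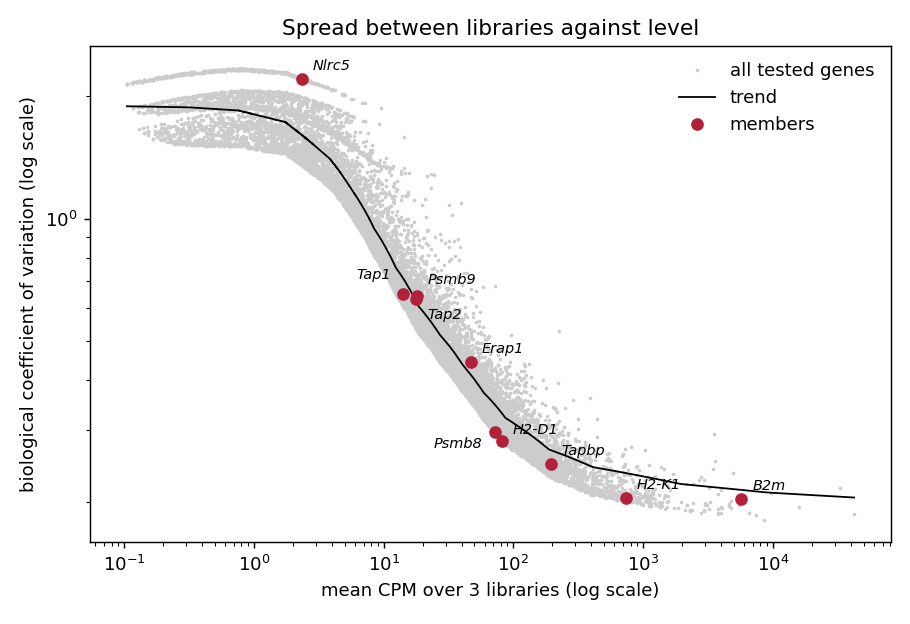
Biological coefficient of variation between libraries from edgeR against mean CPM, both on log axes, for the 13289 genes with 10 counts or more in a library (grey), with the trend as a line and the 10 class I genes in red. The estimate falls with level, from 2.21 for Nlrc5 to 0.204 for B2m, and 6 of the 10 lie below the trend and 4 above it.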

How the data were processed

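Full-length cDNA of sorted cells was amplified with a SMARTer V4 kit, per the labels' protocols. CASAVA 1.8.2, STAR 2.3.0 and the build mm10 are listed, without roles, in the submitters' processing notes. The authors deposited raw counts, whole numbers by NCBI gene ID. How reads were counted, whether strand was used, the read length and the handling of multiply matching reads are not stated in these sources.

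Columns were matched to samples by the number in the titles. Symbols and coordinates came from RefSeq GRCm38.p6, which matched 25275 of 27179 IDs and all 10 members, and exon lengths from GENCODE M21 (union of exons, 21605 genes). CPM used TMM library sizes (edgeR 4.0.16, R 4.3.3), and dispersions came from edgeR's intercept-only fit on genes with 10 counts or more in a library. The fit was also run on simulated data with the same spread at every level. The trend here was 0.214 at B2m and 1.61 at Nlrc5, so that run does not check the estimates of low genes. DESeq2 1.42.0 gave alternative size factors and dispersions. Gene pairs were compared within libraries by an exact two-sided sign-flip permutation test (Python 3.11.15), adjusted over 13 pairs. With 1 group there is no contrast between conditions. Shared sequence was counted as exact matches on either strand in GENCODE M21 transcripts. Of the 10 members, Tap2 and Nlrc5 have no entry in the promoter table, and the first listed start of H2-K1 was used.

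The members, lists and pairs were chosen with earlier results of these data known. The text names all members, the 4 highest genes of a list, genes at 0 counts, pair genes and those that a count or a comparison of libraries turned on. The last of these were chosen after their values were seen. Nrdc and Hbb-bt were not matched and are not analysed here.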

Additional observations from a re-analysis of the deposited data

How the results depend on the processing

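With DESeq2 size factors or total counts the mean CPM of each member moved by less than 1 SD. Leaving out 1 library gave 0 to 3.50 CPM for Nlrc5, 11.6 to 23.2 for Tap2, 12.1 to 23.8 for Psmb9 and 35.96 to 58.9 for Erap1. Of the 10 members, 9 were detected at 0.5 and 5 CPM, with DESeq2 size factors and with each library left out in turn, and 6 at 10 CPM. The threshold of 0.5 CPM and the leave-outs could not lower the count, since detection requires every library to pass. The count of members 2-fold or more apart was 5; it was 3 at 4-fold (36.96% of all genes tested) and 3 to 4 with a library left out (41.1% to 42.0%), where 9 members could be tested without library 1. Of 130 alternative pair differences, 120 kept their direction, and 8 of 13 pairs kept it throughout. Many of these could hardly reverse, so the counts do not measure robustness. Size factors nearly cancel within a library, and leaving 1 library out cannot turn the 9 pairs with the same sign in all 3. With no division by length, Psmb8 minus Psmb5 became 1.55, Psmb10 minus Psmb7 -0.42 and Psme1 minus Psme2 0.28. With the longest annotated transcript, Psmb8 minus Psmb5 became 0.48. With the longest protein-coding transcript, added after the data were seen, it became 0.70, Psmb10 minus Psmb7 -0.59, Psme1 minus Psme2 0.069 and Tap1 minus Tap2 0.0045. Leaving out 1 library gave -0.23 to 0.17 for Psme1 minus Psme2 and -0.0054 to 0.66 for Nlrc5 minus Ciita. The length of the transcripts in these cells is not known, and the cause of the reversals beyond the change of length was not tested. At 5 CPM the class II list had 0 detected and the checkpoint list 1, and the class II list had 1 to 2 with a library left out; these leave-outs were also added after the data were seen. The 59 alternative dispersions stayed within 1.5 times the values given. No paired analysis was possible because there is 1 group. Of the members, Nlrc5, Tap1, Tap2 and Psmb9 rest on the fewest reads, which limits their precision.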

Other observations

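Of 6 genes for checkpoint ligands and costimulators, through which a cell that presents peptide restrains or helps T cells, 2 were detected in every library. Cd274, which encodes the inhibitory ligand PD-L1, had 19.6, 16.0 and 32.5 CPM in libraries 1, 2 and 3. Icosl had 4.35, 1.59 and 5.93 CPM. Pdcd1lg2 had 0, 0 and 289 counts, so it was seen in library 3 alone, as Nlrc5 was in library 1 alone. Cd80 had 0 counts, Cd86 1 and Cd40 2 over the 3 libraries.

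Of 14 interferon-response genes, 11 were detected, with a median of 24.8 CPM. Ifi27l2a led at 1530 ± 99.2 CPM, then Gbp2 at 77.3 ± 15.6, Ifi35 at 53.1 ± 13.1 and Ifit1 at 43.9 ± 20.2. Isg15 had 0.126, 4.32 and 0.0357 CPM, Rsad2 had 25.1, 3.21 and 0.107, and Mx1 had 3 counts in all. Isg15 was highest in library 2 and Rsad2 in library 1, so these genes did not share an order over libraries.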
